A study of Homo sapiens with 14 samples.

Results

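The regions described here are the GATA1 peaks that appear at the same place in both deposited peak lists. A peak of the list labelled shControl was kept where it and a peak of the list labelled shHDAC5 overlapped by at least 50% of the length of each, on chromosomes 1 to 22 and X, with the segment of chromosome 19 from 37 to 41.5 Mb left out. They were chosen by the peak calls themselves, so overlap, length and the scores of both lists are descriptions and are not tested. This gave 5643 shared peaks, or 4.70% of 120087 peaks in the list labelled shControl and 2.27% of 248598 in that labelled shHDAC5. Each shared peak was paired with 1 peak of the other list. A further 8170 peaks of the first list and 7965 of the second touched the other list by less than 50%, and 106274 and 234990 did not touch it.

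GATA1 was immunoprecipitated from PANC-1, a human pancreatic cancer cell line labelled wild type, in 2 samples carrying a control short hairpin RNA (shControl) and 2 carrying a hairpin against HDAC5 (shHDAC5), each with an input, at day 3. The RNA of BxPC-3, another pancreatic cancer line labelled wild type, was sequenced in 3 libraries labelled shControl and 3 labelled shHDAC5, also at day 3, with 15179758 to 17854340 counts per library. HDAC5 is a class IIa histone deacetylase, and the series title places GATA1 between HDAC5 loss and cPLA2, the enzyme encoded by PLA2G4A that releases arachidonic acid from membranes. Whether replicates were separate cultures is not in the labels, and p-values here speak only of the spread among the 6 libraries.

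Several labels did not match the data. All 120087 peaks of the list labelled shControl carry names of a sample called SAHA, and all 248598 peaks of the list labelled shHDAC5 carry names of a sample called NC, so the lists are called by their labels only, and no direction between them is drawn as an effect of HDAC5. HDAC5 RNA was 94.9 ± 2.99 CPM (depth-scaled counts, SD, n = 3) with the label shControl and 164 ± 4.44 CPM with the label shHDAC5, higher under the label of its own knockdown (edgeR's quasi-likelihood test, log2 fold change 0.79, adjusted p = 3.95e-40). SMAD4 and CDKN2A, which are deleted in BxPC-3, together had 194 to 207 CPM (shControl) and 60.3 to 61.0 CPM (shHDAC5). Of 12 epithelial markers, 8 had enough counts to be tested, with 2 called higher and 4 lower under the shHDAC5 label. The 12 summed to 1689 to 1723 CPM (shControl) and 1418 to 1484 CPM (shHDAC5). The 7 leukocyte markers summed to 3.32 to 4.19 CPM and 7.83 to 9.52 CPM, and the 5 endothelial markers to 1.21 to 1.48 CPM and 3.58 to 4.18 CPM. The 8 fibroblast markers summed to 121 to 131 CPM and 86.0 to 91.6 CPM, and the 7 mesenchymal markers to 767 to 789 CPM and 609 to 630 CPM. In bulk RNA, fewer cells of a kind and less RNA per cell cannot be told apart.

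GATA1 is a zinc-finger transcription factor that drives red blood cell and megakaryocyte development. It binds DNA with the letters GATA at the core of its site, most often at enhancers away from gene starts, and works with cofactors such as FOG1 (ZFPM1), LMO2, LDB1 and TAL1. Its best known targets include the globin genes, genes of heme synthesis and platelet glycoprotein genes.

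At gene starts, the letters that GATA1 is known to bind can be looked for directly. Coding promoters were read from RefSeq (build GRCh38.p14) as windows of 250 bases before and 50 bases after a start, and 44 such windows held the summits of a shared peak from both lists. In 10 of the 44 the 250 upstream bases lay in no RefSeq gene. The 3 of these with the highest value of the lower of their 2 fold enrichments are printed, with the only 1 of the 10 that holds any of the 4 GATA motifs searched. These were AGATAA and the form that starts with T instead, TGATAA, and the same pair ending in G, which are AGATAG for the first and for the second TGATAG, each on both strands. Capitals mark the motif, read on the reverse strand as TTATCT at position -48 from the start of PLEKHB1. The sequences run 5′ to 3′ along the gene's strand, from 250 bases before the start to the base before it. They lie at chr5:115180295-115180544 on the minus strand, chr5:81233072-81233321 on the plus strand, chr19:56595052-56595301 on the plus strand and chr11:73646331-73646580 on the plus strand.
TRIM36: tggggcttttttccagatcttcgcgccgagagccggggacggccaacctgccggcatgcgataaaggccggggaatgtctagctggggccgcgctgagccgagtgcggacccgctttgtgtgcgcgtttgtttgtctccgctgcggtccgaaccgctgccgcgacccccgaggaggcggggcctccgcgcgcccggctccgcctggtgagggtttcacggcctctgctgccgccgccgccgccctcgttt
CKMT2: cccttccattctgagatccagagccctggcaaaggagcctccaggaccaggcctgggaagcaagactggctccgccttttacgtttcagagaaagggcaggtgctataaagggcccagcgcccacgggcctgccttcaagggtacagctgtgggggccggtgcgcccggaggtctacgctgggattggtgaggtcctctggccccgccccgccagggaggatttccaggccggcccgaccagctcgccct
ZNF71: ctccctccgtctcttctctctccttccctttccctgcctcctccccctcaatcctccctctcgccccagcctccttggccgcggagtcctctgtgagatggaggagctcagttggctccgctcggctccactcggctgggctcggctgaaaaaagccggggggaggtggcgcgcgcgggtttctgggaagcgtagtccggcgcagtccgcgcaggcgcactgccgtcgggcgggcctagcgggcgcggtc
PLEKHB1: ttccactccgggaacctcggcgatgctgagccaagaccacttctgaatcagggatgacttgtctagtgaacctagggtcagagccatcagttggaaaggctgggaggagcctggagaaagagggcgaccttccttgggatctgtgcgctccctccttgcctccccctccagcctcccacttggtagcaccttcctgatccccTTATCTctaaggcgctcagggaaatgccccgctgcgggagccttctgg

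TRIM36 encodes a ubiquitin ligase of the tripartite motif family, and its shared peak had summits 99 and 47 bases before the start, with a fold of 3.09 (shControl label) and 3.49 (shHDAC5 label). CKMT2, the sarcomeric mitochondrial creatine kinase, had summits at -35 and 18 and folds of 3.25 and 2.99. ZNF71, a zinc-finger gene of chromosome 19, had summits at -72 and -93 and folds of 3.51 and 2.98. At PLEKHB1, which encodes a pleckstrin homology domain protein, the summits were at -110 and -142 and the folds 2.49 and 2.69. The windows of the first 3 genes have 65.3% to 70.0% G and C, and that of PLEKHB1 has 60.0%.

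GATA letters were looked for in the same way in all promoters. Of 22012 coding promoter windows, 20.02% held at least 1 of the 4 motifs. Of the 44 windows with both summits, 4 did, or 9.09% (exact Clopper-Pearson 95% interval 2.53% to 21.7%, counting error only), an interval that includes the share of all windows. Among the 84 windows with a shared summit of the list labelled shControl, 8 did, or 9.52% (interval 4.20% to 17.9%). The 84 windows with a shared summit of the list labelled shHDAC5 also gave 8. The interval of both sets of 84 windows lies below the 20.02% of all windows. Windows with any summit of the list labelled shControl held a motif in 10.7% of 1641 cases, and windows with any summit of the list labelled shHDAC5 in 26.2% of 679.
Base composition moved with this. The median G and C content was 68.0% in the windows with a shared shControl summit and 68.3% in those with a shared shHDAC5 summit, against 62.3% in all windows, and its part in the motif share was not tested. The median was also 68.3% where any summit of the list labelled shControl fell and 61.7% where any summit of the list labelled shHDAC5 fell. A GC box (GGGCGG or CCGCCC, the letters bound by SP1) was present in 65.5% (interval 54.3% to 75.5%) of the windows with a shared shControl summit and 56.3% of all windows. It was in 71.4% (60.5% to 80.8%) with a shared shHDAC5 summit and 70.1% with any shControl summit. The TATA letters TATAAA were present in 3.57% (0.743% to 10.1%) with a shared shControl summit and 9.49% of all windows. With any shControl summit they were in 4.33%. Both shared shControl intervals include the share of all windows, while the GC box interval with a shared shHDAC5 summit lies above it. The letters CCAAT were present in 28.6% (19.2% to 39.5%) with a shared shControl summit and 14.3% (7.61% to 23.6%) with a shared shHDAC5 summit. All windows had 34.7%, and only the shHDAC5 interval lies below that share. With any summit they were in 24.2% (shControl) and 28.9% (shHDAC5). A match is a description of the letters and not a site. Letters at the other shared peaks, away from promoters, were not analysed here.

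The shared peaks were mostly weak. Fold enrichment is the authors' ratio of the immunoprecipitation signal over the peak caller's background, a value of each peak itself, and the caller's −log10 p was at least 1.31 for every peak of both lists. The fold had a median of 2.91 (quartiles 2.45 and 3.23, range 1.65 to 10.8) in the list labelled shControl and 2.52 (quartiles 2.14 and 2.79, range 1.27 to 8.11) in the list labelled shHDAC5. The medians of all peaks of the lists were 2.73 and 2.33. After the caller's own correction, 387 shared peaks had q of at most 0.05 under the shControl label, 87 under the shHDAC5 label and 41 in both. For 2281, or 40.4%, the −log10 q was 0 in both lists.
Over all shared peaks, the fold in a list said little about the fold in the other. Spearman's rho of the folds over the 5643 shared peaks was 0.0866, a description over points that share 2 peak lists. By q the lists were closer. Of the 87 peaks with q of at most 0.05 under the shHDAC5 label, 41 also had it under the shControl label, beside 387 of all 5643. The fold was higher in the list labelled shControl for 4058 peaks, or 71.9%. Only 331 had a fold of at least 3 in both lists and 12 a fold of at least 4 in both. It is unknown here whether the 2 immunoprecipitations of a condition were pooled for its list, so these values carry no replicate error.

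**Figure D1:**
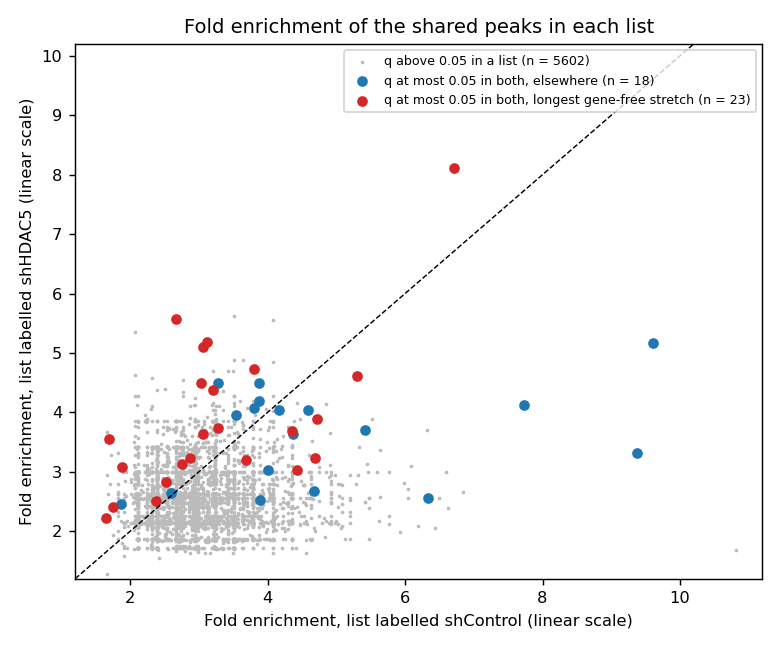
Fold enrichment of each of the 5643 shared peaks in the list labelled shControl (x axis, linear ratio) and in the list labelled shHDAC5 (y axis, linear ratio), with the line of equal folds dashed. Of the 41 peaks with q of at most 0.05 in both lists, 23 (red) lie in the longest gene-free stretch of their chromosome, and 17 of these 23 sit above the line.

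The overlap rule itself keeps the summits of a pair close. They lay a median of 93 bp apart, 3009 pairs (53.3%) were within 100 bp and 284 (5.03%) were 300 bp or more apart. The overlap had a median of 65.5% of the longer peak, 264 pairs reached 90% and 1 pair had identical ends. Median lengths were 364 and 365 bp. At the edge of the rule, the peaks chr1:2387168-2388089, chr1:108817694-108817967 and chr1:208235845-208236229 had an overlap of 50%, with folds of 3.52 and 2.63, 2.39 and 2.14, and 3.23 and 1.88. Just outside it were chr3:139973856-139974150 at 49.92% with folds of 2.93 and 2.91, and chr16:28279554-28279837 and chr19:35526823-35527375 at 49.91%, with folds of 2.39 and 2.14, and 3.85 and 2.30.

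Shared peaks lay near coding genes more often than the peaks of the list labelled shHDAC5 that had no partner. A summit was counted as near a coding gene within 1 kb of its start, or of either end where the promoter table gives no start. Of all peaks, 10.3% were near under the shControl label and 2.27% under the shHDAC5 label. The overlap rule ties each shared peak to the list labelled shControl, so the contrast with unpartnered shHDAC5 peaks is not a test. By the shHDAC5 summit, 739 shared peaks (13.1%, interval 12.2% to 14.0%) were near a coding gene, against 1.69% (1.63% to 1.74%) of the 234990 peaks of that list without overlap. By the shControl summit the share was 12.9% (12.02% to 13.8%), against 10.04% (9.86% to 10.22%) of that list's 106274 peaks without overlap. Peaks that overlapped by less than 50% were close to the shared ones, with 11.9% by the shHDAC5 label and 12.5% by the shControl label. At a −log10 p of at least 3 the shares were 16.2% of shared and 2.04% of unmatched peaks in the list labelled shHDAC5, and 17.2% and 14.0% in the other.
The summits gathered just inside the gene. Of 670 genes reached through an annotated start, 484 had the summit downstream of the start and 186 upstream, with a median of 241 bp downstream. The bin from the start to 500 bp downstream held 6.49% of the shared summits of the list labelled shControl and 3.73% of its summits without overlap.

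**Figure D2:**
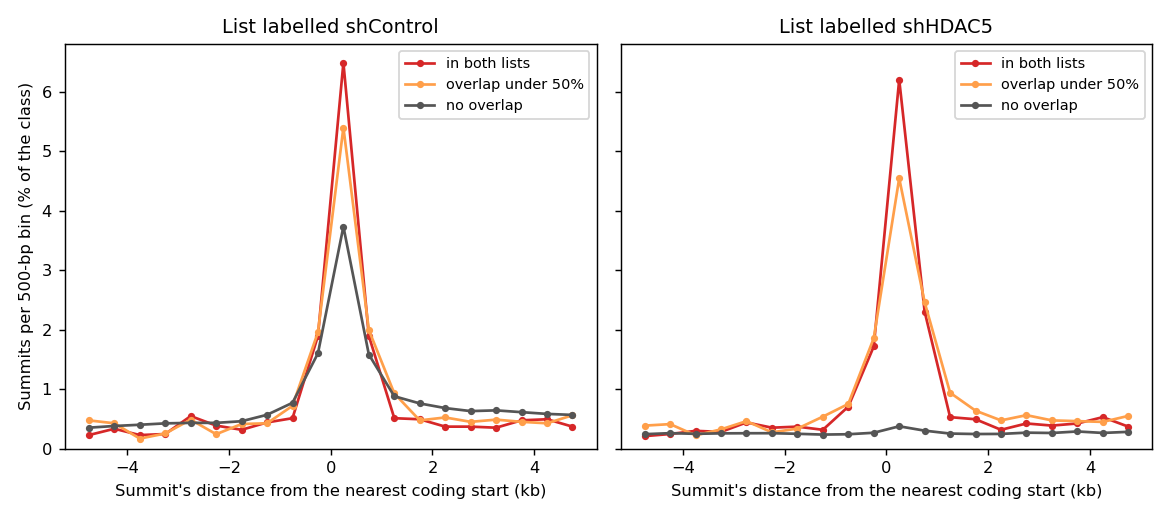
Share of summits (y axis, % of each class per 500-bp bin) by signed distance from the nearest coding start (x axis, kb, downstream positive) for shared peaks, peaks overlapping by less than 50% and peaks without overlap, in each list. Shared peaks reach 6.49% just downstream of the start on the left. On the right, the peaks without overlap stay nearly flat.

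Away from starts, 3093 shared summits (54.8%) lay inside a coding gene, 674 in another RefSeq gene only and 1876 in none. The lists as wholes had 58.7% (shControl) and 44.0% (shHDAC5) inside coding genes. The share over 100 kb from the nearest coding start, or either end where no start is given, was 26.0% for shared peaks. It lay between the 22.04% and 40.1% of the lists. A summit inside a long gene can be that far from a start. Long noncoding RNA genes had a shared summit within 1 kb of an end in 312 cases, or 5.53% of the peaks. The lists as wholes had 5.27% (shControl) and 2.67% (shHDAC5). For pseudogenes there were 108 cases (1.91%, lists 1.95% and 1.49%) and for microRNA genes 31 (0.549%, lists 0.542% and 0.129%). Small nucleolar RNA genes had 14 (0.248%, lists 0.144% and 0.0805%).
Every chromosome from 1 to 22 and X held shared peaks. Their share of the list labelled shControl ran from 3.17% on chromosome 22 to 5.60% on chromosome 20, and their share of the list labelled shHDAC5 from 0.984% on chromosome 13 to 5.14% on chromosome 19. By 1-Mb bin, 1926 bins held a shared peak, 67 held 10 or more, and the fullest, on chromosome 16 from 2 to 3 Mb and on chromosome 5 from 1 to 2 Mb, held 19 each.

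**Figure D3:**
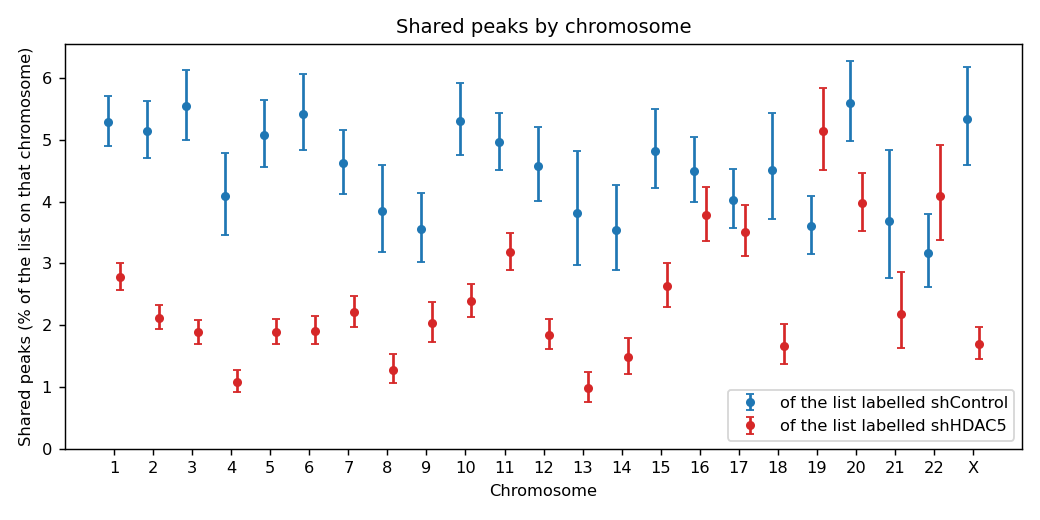
Shared peaks as a share of each list on each chromosome (y axis, %), with exact 95% Clopper-Pearson intervals that cover counting error only. The share of the list labelled shControl (blue) stays between 3.17% and 5.60%, while that of the list labelled shHDAC5 (red) runs from 0.984% on chromosome 13 to 5.14% on chromosome 19.

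The strongest shared peaks were at another kind of place than the moderate ones. With peaks split by the lower of their 2 −log10 p values, the share near a coding gene was 9.61% (interval 8.49% to 10.8%) of the 2560 peaks under 2 and 24.4% (17.1% to 33.0%) of the 123 peaks from 4 to 5. It was 1 of 30 peaks, or 3.33% (0.0844% to 17.2%), at 6 or more. The share in the longest stretch of the chromosome that holds no RefSeq gene went from 0.664% (0.387% to 1.06%) under 2 to 63.3% (43.9% to 80.1%) at 6 or more. These stretches, which on most chromosomes span the centromere and its satellite repeats, held 101 shared peaks, or 1.79%. Of all peaks they held 0.455% under the shControl label and 1.09% under the shHDAC5 label.
Of the 41 shared peaks with q of at most 0.05 in both lists, 23 (56.1%, interval 39.7% to 71.5%) lay in such a stretch and 3 lay in a coding gene. By the distance to a coding start or end described above, 30 were over 100 kb away. The summits of the 41 pairs were a median of 26 bp apart. Peaks with q of at most 0.05 in each list taken alone were in a stretch in 1.36% of 5820 cases (shControl) and 31.5% of 1015 cases (shHDAC5). How reads mapping to several places were handled is unknown here, and repeats were not analysed.

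**Figure D4:**
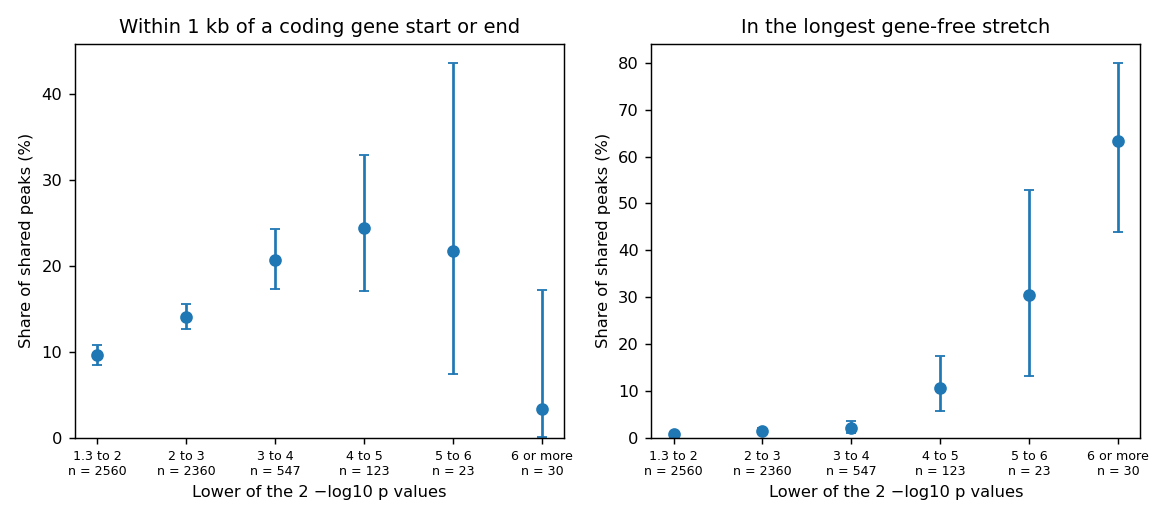
Share of shared peaks near a coding gene (left, y axis in %) and in the longest gene-free stretch of their chromosome (right, y axis in %), by the lower of their 2 −log10 p values (x axis), with exact 95% intervals that cover counting error only. The left share goes from 9.61% to 24.4% and is 3.33% in the last class, and the right share reaches 63.3% there.

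Among the 12 shared peaks with the highest lower fold, 3 were in gene-free stretches and 6 in a coding gene. The first, chr6:59383066-59383411 in the list labelled shControl, had folds of 6.72 and 8.11 and −log10 q of 10.9 and 18.3. The nearest coding start, that of PRIM2, a primase subunit, was 2065.6 kb away. The third, chrX:61615031-61615288, had folds of 5.30 and 4.62 and its nearest coding start was 1736.2 kb away. The sixth and longest shared peak, chr2:91658089-91660479, spanned 2391 bp in LSP1P4, a pseudogene, with folds of 7.73 and 4.13.
Inside genes, chr7:47415353-47415718 lay in TNS3, a focal adhesion adaptor of the tensin family, with folds of 4.43 and 4.16. The peak chr5:175686546-175687809 lay in HRH2, the histamine H2 receptor, with folds of 4.85 and 4.14. In BCL11A, a repressor of fetal globin genes whose gene body holds erythroid enhancers bound by GATA1, the peak chr2:60497992-60498524 had folds of 4.58 and 4.04 and −log10 q of 2.50 and 1.62. XIRP2, which encodes an actin-binding protein of muscle, and KYAT3, an aminotransferase of the kynurenine pathway, held 2 more of the 6 peaks in coding genes, with lower folds of 4.07 and 4.04. The tables used here give no exons, so the position within each gene was not determined.
By q, the 12 strongest included 7 in gene-free stretches and none in a coding gene. The pair chr7:56373418-56373796 and chr7:56371425-56372226, in neighbouring pseudogenes, had −log10 q of 45.4 and 49.1 in the list labelled shControl and 11.4 and 6.14 in the other. The peak chrX:115732300-115733203, 139.1 kb from the start of PLS3, a plastin that bundles actin, had folds of 9.37 and 3.32. In the TAF11-like repeat family of chromosome 5, a peak 1.3 kb from the start of TAF11L10 (chr5:17598964-17599372) had folds of 4.37 and 3.63. The peak at TAF11L3 had 9.60 and 5.17. Genes of this family are near-identical, so reads could be placed on the wrong copy.

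A shared peak near the start or an end was found for 803 coding genes, 4.02% of 19974. A peak of the list labelled shControl was found at 49.3% of coding genes and a peak of the list labelled shHDAC5 at 26.6%. The genes with a shared peak are described by role against that 4.02%. Distances given here in kb run from a gene's start, or its nearer end where no start is given, to the summit.
Of 18 GATA factors and cofactors, 3 had a shared peak: GATA1, LMO2, the bridging cofactor of the GATA1 complex, and RCOR1, a corepressor that joins histone deacetylases to a demethylase. The peak at GATA1 (chrX:48785801-48786100) was 739 bp upstream of the start, with folds of 2.39 and 2.25 and a −log10 q of 0 in both lists. The peak at LMO2 (chr11:33891898-33892238) had folds of 2.95 and 2.56, and that at RCOR1 (chr14:102592796-102593335) 1.91 and 2.14. Within 10 kb of a shared peak were 6 of the 18, or 33.3%, beside 10.3% of all coding genes, among them GATA2 at 3.6 kb, GATA5 at 4.9 kb and ZFPM1, which encodes FOG1, at 4.1 kb. The list was chosen with earlier results of these data known, and no test was made of its share.
None of 25 erythroid and megakaryocyte targets of GATA1 had a shared peak, although 8 had some peak in the first list (shControl) and 10 in the second. Within 10 kb of a shared peak were 3 of the 25, or 12%. These were GFI1B, a repressor of erythroid and megakaryocyte development, at 1.1 kb (chr9:132944170-132944493, folds 2.95 and 2.56), and GP1BA and GP1BB, which encode platelet glycoproteins, at 4.1 and 4.2 kb. HBB, the adult beta globin gene, was 108.3 kb from the nearest. Of 34 enzymes of arachidonic acid and prostanoid metabolism, only LTC4S, the leukotriene C4 synthase, had a shared peak (chr5:179793588-179794026, folds 2.68 and 2.51). Some peak was found at 14 of the 34 in the first list and 11 in the second. The shared peak nearest to the start of PLA2G4A, at 245.2 kb, had folds of 4.22 and 2.56. It was also that nearest to the start of PTGS2, the inducible cyclooxygenase, at 393.7 kb. Distances from the far ends of these genes were not taken. None of 18 histone deacetylases had a shared peak, although 10 had some peak in the first list and 6 in the second. The shared peak nearest to HDAC5 was 98.7 kb away. With 4.02% of all coding genes having a shared peak, none in lists of 18 or 25 genes is not a result about them.
Of 18 condensin and cohesin subunits, which fold and hold together chromosomes, 4 had a shared peak: SMC3, SMC4, NCAPD3 and NCAPG. Their folds ran from 2.39 to 6.44 in the list labelled shControl and from 2.05 to 2.95 in the other. Of 33 cell cycle and replication genes there were 2, CDC25A and RRM2, of 30 immediate early genes 1, EGR1, and of 76 cytosolic ribosomal proteins 3. Of 517 coding genes with a ZNF symbol, 22 (4.26%) had one, and of the 250 on chromosome 19, 14 (5.60%).

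RNA was set beside the peaks as a description, because the peaks come from PANC-1 and the RNA from libraries labelled BxPC-3. Genes with a shared peak were more often expressed than coding genes as a whole. Of the 803, 777 were matched in the count table and 661 (85.1%) had enough counts to be tested, against 71.8% of coding genes. The tested share was 80.8% of genes with any peak of the list labelled shControl and 74.8% with any of that labelled shHDAC5. The median RPKM over the 777 genes (a level per gene length) was 4.32 to 4.50 with the shControl label and 3.97 to 4.01 with the shHDAC5 label. It was 1.96 to 1.99 and 1.83 to 1.85 over all coding genes, and 3.47 to 3.53 and 2.93 to 2.95 over genes with any peak of the list labelled shControl.
The change between the RNA groups was about that of other genes. Among the 19181 genes that edgeR tested, 84.7% passed the threshold of 0.05 after adjustment, 44.8% higher and 39.9% lower in the libraries labelled shHDAC5. Of the 661 genes with a shared peak, 603 (91.2%) were called, 297 higher and 306 lower, against 88.5% of coding genes. The median log2 fold change was -0.01 for them, 0.00 for coding genes and 0.09 for all genes tested. The split between higher and lower depends on the scaling: with total counts it was 329 higher and 274 lower (median log2 fold change 0.18), and with upper-quartile factors 321 and 283. The groups did not overlap for 596 (90.2%), against 88.4% of coding genes and 84.8% of all genes. Over the whole count table, 25775 to 26078 genes had a count in each library labelled shControl. In each library labelled shHDAC5 it was 33115 to 33632 genes, so appearance from 0 counts was not particular to genes with a shared peak.

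GATA1 itself had few reads. Its level was 0.451, 0.279 and 0.302 CPM under the shControl label and 3.13, 2.35 and 3.07 CPM under the shHDAC5 label, from 16 and 149 counts in all. The groups did not overlap, and the log2 fold change was 3.02 ± 0.35 (SE, edgeR, adjusted p = 1.43e-13). LMO2 had no count under shControl and 30 counts under shHDAC5 and was not tested. RCOR1 fell from 119 ± 3.25 to 103 ± 3.09 CPM (SD, n = 3), a call lost with total-count scaling (edgeR, adjusted p = 0.402). LTC4S fell from 1.77 ± 0.643 to 0.690 ± 0.0712 CPM.
PLA2G4A, with no shared peak, rose from 24.6 ± 2.48 to 51.7 ± 3.07 CPM. BCL11A, with the peak in its gene body, had 1 count in all under shControl and 140 under shHDAC5.

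Among genes whose promoter held both summits, those named here went both ways. The genes of the 4 printed promoters were higher in the libraries labelled shHDAC5. TRIM36 had 5.79, 6.78 and 6.82 CPM and then 47.6, 47.7 and 50.3 CPM. PLEKHB1 had 0.322, 0.559 and 0.604 CPM and then 30.7, 27.7 and 27.3 CPM. CKMT2 went from 2.70 ± 0.285 to 4.45 ± 0.557 CPM and ZNF71 from 3.33 ± 0.285 to 6.04 ± 0.0434 CPM (SD, n = 3). In all 4 the groups did not overlap, as for 88.4% of coding genes tested. Of the 44 windows, those of GNB4, a G protein beta subunit, and IL4R, the interleukin 4 receptor, ranked 1 and 3 by lower fold, with folds of 3.81 and 3.95, and 3.47 and 3.75. GNB4 fell from 105 ± 3.19 to 37.5 ± 1.12 CPM and IL4R from 38.0 ± 0.999 to 11.02 ± 0.193 CPM (SD, n = 3). The RNA of MOCS1 and TNS2, whose windows ranked 2 and 4, is not given here.
Genes with the highest lower fold of a peak near a start or an end went both ways. The peak chr16:788843-789186, with folds of 4.07 and 4.03, lay near the starts of both CHTF18, a loader of the replication clamp, and RPUSD1, a pseudouridine synthase. CHTF18 rose from 175 ± 2.34 to 278 ± 1.45 CPM and RPUSD1 from 63.2 ± 2.07 to 71.6 ± 1.94 CPM (SD, n = 3). MAPK8, the stress kinase JNK1, had 42.3, 42.5 and 42.9 CPM and then 134, 120 and 127 CPM (log2 fold change 1.58 ± 0.04, SE). MAP3K4, a kinase upstream of it, rose from 26.3 ± 0.481 to 43.6 ± 0.662 CPM, and TWSG1, a modulator of BMP signalling, from 24.03 ± 0.203 to 30.4 ± 0.664 CPM. TCFL5, a testis-enriched transcription factor, went from 66.7 ± 1.02 to 56.8 ± 1.72 CPM (log2 fold change -0.23), a call lost with upper-quartile (edgeR, adjusted p = 0.0631) and total-count scaling (adjusted p = 0.335). TAF11L3 had no count in any library.

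The largest rises among genes with a shared peak started from 0 or nearly 0. Over all genes too, more had counts in the libraries labelled shHDAC5, as given above. FAM153A, ZNF606, CD40, ABCC8 and ADD2 had no count in the 3 libraries labelled shControl. Against 3 counts over that group, FAM153A (27.7, 27.8 and 25.7 CPM) was at least 419-fold higher, though it has near-identical copies that could share reads. On the same bound ZNF606, a zinc-finger gene, was at least 184-fold higher, and CD40, a costimulatory receptor of the tumour necrosis factor receptor family, at least 147-fold. ABCC8, the sulfonylurea receptor of pancreatic beta cells, was at least 94.6-fold higher and ADD2, beta adducin of the red cell membrane skeleton, at least 70.1-fold. MAN1C1, a Golgi mannosidase, rose from 0.348 ± 0.167 to 36.4 ± 2.89 CPM. GOLGA7B and CYP39A1 had 2 and 1 counts in all under shControl and 997 and 354 under shHDAC5.
The largest falls were in well expressed genes. STAT5B, a transcription factor of cytokine signalling, fell from 499, 480 and 497 CPM to 28.3, 31.7 and 30.2 CPM (log2 fold change -4.03 ± 0.04, SE, adjusted p = 6.82e-106, edgeR). CYBRD1, a ferric reductase of iron uptake, fell from 63.8, 56.5 and 58.0 to 2.78, 2.75 and 3.58 CPM, with a shared summit 26 bp upstream of its start. LTBR, the lymphotoxin beta receptor, fell from 161 ± 7.30 to 10.1 ± 0.713 CPM and S100A4, a calcium-binding protein linked to cell motility, from 221 ± 7.74 to 20.5 ± 1.63 CPM. CLDN7, a claudin of epithelial tight junctions, fell from 115 ± 5.32 to 10.6 ± 1.16 CPM. DHRS3, a retinal reductase, PCOLCE2, an enhancer of procollagen processing, and EVA1C fell by 3.76, 3.37 and 3.32 on the log2 scale.

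**Figure D5:**
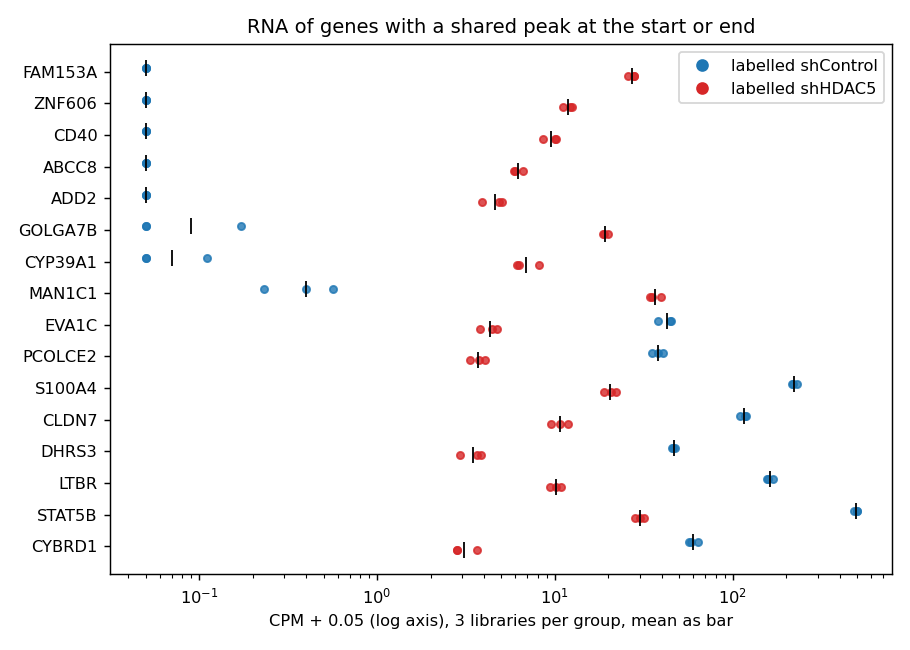
Level of the 8 largest rises and the 8 largest falls called among genes with a shared peak near a start or an end (x axis, CPM plus 0.05 on a log axis), with 3 points per group and the mean as a bar. Groups that do not overlap were required for the choice of the 16. FAM153A, ZNF606, CD40, ABCC8 and ADD2 have no count in the libraries labelled shControl.

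The 4 condensin and cohesin subunits with a shared peak all fell. SMC4, a core ATPase of condensin, went from 293 ± 8.89 to 108 ± 1.24 CPM, NCAPG from 85.5 ± 5.35 to 24.2 ± 1.25 CPM, NCAPD3 from 312 ± 6.25 to 243 ± 1.84 CPM and SMC3 of cohesin from 351 ± 4.64 to 198 ± 4.85 CPM (SD, n = 3). The list as a whole did likewise, with 16 of 18 called lower and 1 higher. Of all coding genes tested, 44.4% were called lower and 44.1% higher. RRM2, a subunit of ribonucleotide reductase, fell from 142 ± 1.90 to 40.5 ± 1.56 CPM and CDC25A, a phosphatase that drives entry into S phase, from 33.4 ± 3.10 to 9.98 ± 0.854 CPM. Of the 33 cell cycle and replication genes, 31 fell and 1 rose. EGR1, an immediate early transcription factor, rose from 26.3 ± 1.78 to 179 ± 1.05 CPM, in a list of 30 with 22 higher and 7 lower.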

How the data were processed

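GATA1 peaks came from PANC-1 in 2 lists, each tied by its labels to 2 immunoprecipitations and 2 inputs. RNA came from 6 libraries labelled BxPC-3. The submitters' processing notes list MACS2 2.2.7.1, featureCounts 2.0.1, fastp 0.23.2, FastQC 0.11.9 and deepTools 3.5.0, with no role given, and the build hg38. For the aligner, the annotation and the strand setting no source used here gives a name. The RNA values are raw read counts per gene as the authors deposited them. Each peak list holds the authors' fold enrichment as a ratio and the peak caller's −log10 p and q, all as deposited.

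Overlaps and distances were computed in Python 3.11.15 with pandas 2.3.3 and numpy 2.4.6, with exact Clopper-Pearson intervals at 95% from scipy 1.17.1, which cover counting error only. The lists give no read depth. Genes came from a RefSeq table of GRCh38.p14. Counts were tested in R 4.3.3 with edgeR 4.0.16 (filter by group, TMM scaling, quasi-likelihood test, Benjamini-Hochberg over all genes tested, threshold 0.05), checked on simulated data. CPM use TMM-scaled library sizes. A fold against a group without counts uses 3 counts over the group. Replicate numbers did not pair the libraries. Genes whose reads overlap on either strand cannot be told apart.

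Members, gene lists and rules were chosen with earlier results of these data known. Named regions are the 12 with the highest lower fold, the 12 with the highest lower −log10 q, the 5 longest and 3 on each side of the 50% limit, given here in part. Named genes are those at such peaks, the 8 with the highest lower fold, the 8 largest rises and 8 largest falls (called, average log2 CPM of at least 1, groups not overlapping), list members with a shared peak, HDAC5, GATA1 and PLA2G4A. Outside that rule, chosen after their values were seen, are BCL11A's RNA, the genes of the printed promoters, GNB4, IL4R and PTGS2. So are genes named by their distance to a peak, and members of the condensin, cell cycle and immediate early lists. The gene-free stretches and the classes by −log10 p were also added after the data were seen. So were the searches for letters other than GATA, among them the GC box, CCAAT and TATA. The inputs were not analysed separately. Alternatives were other overlaps, thresholds and windows, other scalings, filters and DESeq2 1.42.0, a replicate block and leaving out each library.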

Additional observations from a re-analysis of the deposited data

How the results depend on the processing

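The number of shared peaks depends on the overlap rule: it was 5643 at 50% of both lengths, 13813 at 1 bp, 10411 at 25% and 1540 at 75%, and 41 with q of at most 0.05 in both lists or 723 with −log10 p of at least 3 in both. Coding genes with a shared peak numbered 803, then 1811, 1475, 220, 2 and 169 under those settings in the same order, and 1413 with a window of 5 kb. The share near a coding gene was 12.9%, 4.88% at q of at most 0.05 and 20.6% at −log10 p of at least 3; it was 9.71% with a window of 500 bp, 15.8% with 2 kb, 22.3% with 5 kb and 10.8% with annotated starts only, a choice made after seeing the data. Called genes among those with a shared peak were 603, and 981 with the 5 kb window. With the replicate number as a block, 599 were called (16072 of all genes), and same-numbered libraries did not deviate together (correlations -0.0165, 0.00165 and 0.0116). Leaving out each library gave 593 to 599, and 16173 to 16567 of all genes. Scaling by total counts moved the median log2 fold change of all genes from 0.09 to 0.27. Of 559 values of 43 named genes under the alternatives, 555 kept their direction and their side of the threshold. For PTGS2, which was not called under any setting, the log2 fold change was -0.18 and turned to 0.00616 with total counts. The other 3 were no longer called: TCFL5 with upper-quartile factors and total counts, and RCOR1 with total counts (adjusted p = 0.402, edgeR). The depth of the peak lists is unknown, so a gene without a shared peak is not shown to lack binding.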
